A study of Homo sapiens with 8 samples.

Results

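The epidermal growth factor (EGF) family ligands and ERBB receptors are described here by 8 genes, taken by symbol: the ligands AREG, EREG, HBEGF, TGFA and BTC, and the receptors EGFR, ERBB2 and ERBB3. All 8 were present among the 19475 entries of the mRNA table. Their names marked 6 to 10 of the 17039 to 18365 m6A peaks per list, which merged into 10 of 22001 union regions. A union region was a stretch of exon bases on 1 strand that a peak of any of the 4 lists covered, with peaks joined where they shared at least 1 bp.

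HCT116 is a human colorectal carcinoma cell line. The cells were exposed to Fusobacterium nucleatum (FUSO) or to PBS (Control) for 2 h, in 2 biological replicates each, with no other treatment among the 8 samples. Every replicate gave an input library of fragmented poly(A) RNA and an IP library of fragments pulled down with an antibody against N6-methyladenosine (m6A). The inputs gave mRNA levels in FPKM (fragment counts normalised for transcript length and library size), and each IP was read with its input as 1 peak list. The comparison asked whether mRNA and m6A peaks differed after exposure to the bacterium, within a single cell line and at a single time.

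EGF family ligands are made as membrane-anchored precursors that metalloproteases such as ADAM17 release. AREG and TGFA bind EGFR, EREG, HBEGF and BTC bind EGFR and ERBB4, ERBB3 binds neuregulins, and ERBB2 has no known ligand and serves as the partner in receptor pairs. Paired receptors signal through RAS and the MAPK and PI3K cascades, and in the intestinal epithelium AREG and EREG are known as growth and repair signals. m6A is placed mostly in a GGAC-like context near stop codons and in 3′ untranslated regions, where reader proteins bind it.

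Because m6A sits in such contexts, the sequences shown are 24 nt windows of the sense strand (GRCh37, written as DNA) with GGAC in capitals. The first 4 were the GGAC nearest the middle of the bases shared by every list with a peak in the region, and they stand for 3 regions found in all lists and for the 1 region found in both FUSO lists and neither Control list. The last 2 were the GGAC nearest the stop codon in the 2 most abundant members, where no list had a peak. Windows were chosen by GGAC alone. In the ERBB2 window the next base is G, which the wider m6A motif DRACH (defined with AREG below) does not allow.
HBEGF region 1: caaaagcaagGGACcttcatgccc
EGFR region 2: tcgatacccaGGACcaagccacag
ERBB2 region 1: acctgggtctGGACgtgccagtgt
ERBB3 region 2: aaaaataactGGACatctttgtgt
AREG: ataagacaatGGACcctttttgtt
EREG: tctatctggtGGACatgagtcaaa
The HBEGF window was chr5:139713641-139713664 on the minus strand, with its A at position 234. Positions are given in nt of spliced mRNA from the stop codon, negative before it. The others lay on the plus strand. The EGFR window was chr7:55273350-55273373 (position 54), the ERBB2 window chr17:37884272-37884295 (position −11), and the ERBB3 window chr12:56497005-56497028 (position 1180). The AREG window was chr4:75320544-75320567 (position 101), and the EREG window was chr4:75246821-75246844 (position −251).

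The inputs matched an epithelial line. KRT8 was at 1940 to 2290 FPKM and EPCAM at 162 to 184 FPKM, while VIL1 was at or near 0. Of the markers of other cells, PTPRC, CD3E and PECAM1 were at or near 0, and CD68 and COL1A1 were at 7.15 to 9.3 and 3.78 to 5.72 FPKM. The summed FPKM of the 7 epithelial markers were 5180 and 4800 in Control and 4360 and 4720 in FUSO, and those of the 5 other markers 11.7 and 13.1 against 14.7 and 14.1. Their part in the differences below was not tested. Read counts were not given, so absolute depth was unknown. Relative to the input of Control 1, input depth was estimated at 1.11 in Control 2, 1.23 in FUSO 1 and 0.909 in FUSO 2. The estimate used the most frequent FPKM ratio of each pair of inputs among detected genes at 0.05 FPKM or less. That ratio was met by only 6 to 12 of 261 to 329 such genes per pair.

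The members spanned a wide range of mRNA levels. Over the 4 inputs AREG averaged 350.0 FPKM and EREG 183 FPKM, ranks 187 and 339 of the 11088 genes tested (mean of at least 1 FPKM). TGFA (16.5 FPKM), ERBB2 (12.7 FPKM), HBEGF (9.53 FPKM), EGFR (6.9 FPKM), ERBB3 (4.65 FPKM) and BTC (1.24 FPKM) followed. HBEGF and EGFR overlapped in their values over the inputs, whereas no other neighbours in this order did. AREG was therefore the most abundant ligand and ERBB2 the most abundant receptor of these cells at the level of mRNA.

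All 5 ligands had higher mRNA levels in both FUSO inputs than in both Control inputs, while all 3 receptors overlapped between the groups. In comparison, both FUSO inputs lay above both Control inputs in 26.1% of tested genes and below them in 21.1%. The median log2 fold change was 0.38 over the ligands, 0.01 over the receptors and 0.014 over all tested genes. Limma's moderated test on log2(FPKM + 1), the scale of every fold change here, called no member at an adjusted p under 0.05, against 0.667% of genes called higher and 0.135% called lower. At an unadjusted p under 0.05, 4 members were higher (AREG 0.00106, EREG 0.00116, HBEGF 0.00328 and TGFA 0.0237 by limma) and 0 lower, where the shares over all tested genes were 7.04% and 6.45%. When a log2 fold change above 1 was also required, 0 members were called, against 0.334% and 0.0361% of genes. In bulk RNA of this kind, fewer cells with a transcript and less of it per cell cannot be told apart.

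**Figure D1:**
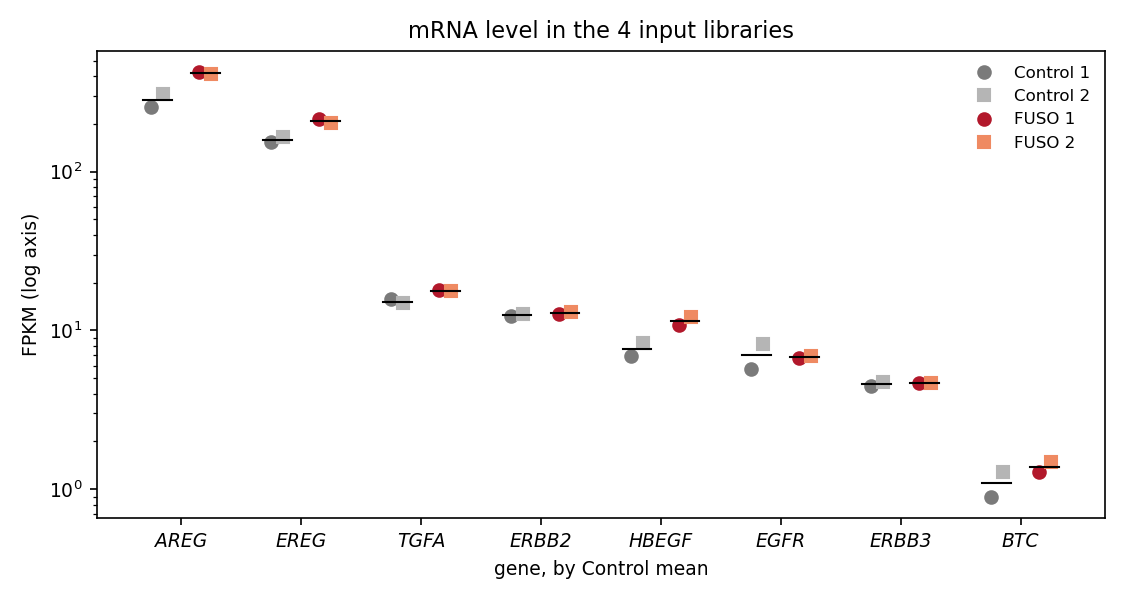
mRNA level of the 8 members in FPKM (log axis), with Control 1 and 2 in greys, FUSO 1 and 2 in red and orange, and a bar at each group mean. The FUSO points of AREG (424 and 414 FPKM) stand above both Control points (255 and 307 FPKM), whereas those of ERBB2 (12.7 and 13.1 FPKM) overlap with Control (12.4 and 12.7 FPKM).

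Amphiregulin (AREG, chr4:75310853-75320722, GRCh37) was at 255 and 307 FPKM in the Control inputs, against 424 and 414 FPKM in the FUSO inputs. Its groups were well apart, and the Control inputs differed more from each other than the FUSO inputs did. The means were 281 ± 36.9 and 419 ± 6.84 FPKM (SD, n = 2), a ratio of 1.49. The log2 fold change was 0.58 (SE 0.093, 95% interval 0.35 to 0.81), with an adjusted p of 0.0973 by limma. Leaving out Control 1 or Control 2 brought AREG past the threshold, with log2 fold changes of 0.45 and 0.71 and limma adjusted p of 0.0111 and 0.00234, whereas without FUSO 1 or FUSO 2 the adjusted p was 0.581 and 0.49. The genome build holds a near-identical copy, AREGB, whose canonical transcript matched that of AREG at 1233 of 1234 nt. The mRNA table had a row for AREG and none for AREGB, and how fragments that fit both copies were counted was not stated in the sources used here.

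Epiregulin (EREG, chr4:75230862-75254466), the neighbour of AREG on chromosome 4, was at 153 and 164 FPKM in the Control inputs, against 213 and 201 FPKM in the FUSO inputs. The gap between the groups was larger than the spread within either. The means were 159 ± 7.74 and 207 ± 8.93 FPKM (SD, n = 2). EREG had a log2 fold change of 0.38 (SE 0.0621, 95% interval 0.23 to 0.54) and a limma adjusted p of 0.101. Without Control 2 the log2 fold change was 0.43 and the limma adjusted p was 0.0232, while the adjusted p was 0.0695 without Control 1, 0.683 without FUSO 1 and 0.449 without FUSO 2.

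Heparin-binding EGF-like growth factor (HBEGF, chr5:139712428-139726188) was at 6.95 and 8.3 FPKM in the Control inputs, against 10.8 and 12.1 FPKM in the FUSO inputs. Its groups did not overlap, and its ratio of means, 1.5, was close to that of AREG although its level was far lower. The means were 7.62 ± 0.955 and 11.4 ± 0.92 FPKM (SD, n = 2). The log2 fold change was 0.53 (SE 0.107, 95% interval 0.26 to 0.8), with a limma adjusted p of 0.168. Without Control 2 these values were 0.64 and 0.0419, while the limma adjusted p was 0.169 without Control 1, 0.514 without FUSO 1 and 0.662 without FUSO 2.

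Transforming growth factor alpha (TGFA, chr2:70674416-70780958) was at 15.7 and 14.8 FPKM in the Control inputs, against 18.0 and 17.6 FPKM in the FUSO inputs. The groups were apart by a small step, with means of 15.2 ± 0.633 and 17.8 ± 0.325 FPKM (SD, n = 2). TGFA had a log2 fold change of 0.21 (SE 0.0683, 95% interval 0.04 to 0.38) and a limma adjusted p of 0.307.

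Betacellulin (BTC, chr4:75669969-75719733) was close to the lowest level tested, at 0.899 and 1.29 FPKM in the Control inputs, against 1.29 and 1.48 FPKM in the FUSO inputs. FUSO 1 exceeded Control 2 only past the third digit, so the separation of the groups was nominal. The log2 fold change was 0.19 (SE 0.127, 95% interval −0.12 to 0.51), with a limma adjusted p of 0.529.

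EGFR (chr7:55086710-55279321), the receptor for all 5 of these ligands, was at 5.75 and 8.24 FPKM in the Control inputs, against 6.73 and 6.88 FPKM in the FUSO inputs. Both FUSO values lay between the Control values. The log2 fold change was −0.02 (SE 0.155, 95% interval −0.4 to 0.37), with a limma adjusted p of 0.977, and the interval still held a change as large as that measured for TGFA. The sign followed the Control input that was kept: the log2 fold change was −0.24 without Control 1 and 0.21 without Control 2.

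ERBB2 (chr17:37856317-37884911) was at 12.4 and 12.7 FPKM in the Control inputs, against 12.7 and 13.1 FPKM in the FUSO inputs. The groups met at their edges. ERBB2 had a log2 fold change of 0.03 (SE 0.068, 95% interval −0.14 to 0.2) and a limma adjusted p of 0.847. Its last exon shares bases with MIEN1 on the other strand, a gene at 38.2 to 39.8 FPKM, and whether fragments were counted by strand was not stated in the sources used here.

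ERBB3 (chr12:56473949-56497289) was at 4.5 and 4.74 FPKM in the Control inputs, against 4.69 and 4.65 FPKM in the FUSO inputs, with both FUSO values between the Control values. The log2 fold change was 0.01 (SE 0.0803, 95% interval −0.19 to 0.21), with a limma adjusted p of 0.963, and it turned to −0.03 with quantile normalization, −0.01 with median centring and −0.02 without Control 1. The intervals of ERBB2 and ERBB3 left out changes as large as those measured for AREG, EREG and HBEGF.

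The remaining family genes were barely expressed. EGF, EPGN, NRG1, NRG2, NRG3, NRG4 and the receptor gene ERBB4 all averaged under 1 FPKM, and none was tested. NRG4, a ligand of ERBB4, was the highest of them in Control, at 0.95 and 0.935 FPKM, with 0.624 and 0.616 FPKM in FUSO.

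Of the genes that release EGF ligands, 6 were tested and 0 were called. ADAM17, the main sheddase of AREG, EREG, HBEGF and TGFA, was at 8.94 and 9.67 FPKM in the Control inputs, against 9.34 and 8.8 FPKM in the FUSO inputs, with overlapping groups. FRMD8 and RHBDF1, whose proteins hold ADAM17 at the cell surface or aid its maturation, had the largest differences of that list. FRMD8 was at 9.18 and 9.47 FPKM in the Control inputs, against 7.07 and 7.47 FPKM in the FUSO inputs, a log2 fold change of −0.32 with a limma adjusted p of 0.213, and RHBDF1 had −0.23 with 0.334. Both pointed the other way from the ligands.

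Among 23 tested adaptors and enzymes downstream of the receptors, 0 were called, with a median log2 fold change of 0.01. HRAS, a RAS GTPase, had the largest difference (log2 fold change −0.35, limma adjusted p of 0.224), followed by the PI3K catalytic subunit PIK3CB (−0.29, adjusted p of 0.489).

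Inhibitors of the receptors or of RAS signalling counted 14 tested genes with 0 called and a median log2 fold change of 0.15. SPRY4, an inhibitor that MAPK signalling induces, came closest, at 27.4 and 26.4 FPKM in the Control inputs, against 36.9 FPKM in both FUSO inputs (log2 fold change 0.44, SE 0.0593, limma adjusted p of 0.0519). SPRY2 had 0.27 with an adjusted p of 0.377. ERRFI1, which binds and blocks active EGFR and was added here after its values were seen, was at 370 and 386 FPKM in the Control inputs, against 447 and 428 FPKM in the FUSO inputs (0.21, adjusted p of 0.233).

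Of 9 tested genes known as outputs of MAPK signalling, 1 was called. EPHA2, an ephrin receptor, averaged 76.0 ± 0.617 FPKM in Control and 102 ± 2.46 FPKM in FUSO (SD, n = 2), with no overlap (log2 fold change 0.42, SE 0.053, limma adjusted p of 0.0405). This call was lost when either FUSO input was left out, without the filter on low values, with median centring, without the trend and with the replicate block. DUSP4, a MAPK phosphatase, had the largest difference, at 26.1 and 27.3 FPKM in the Control inputs, against 9.36 and 20.7 FPKM in the FUSO inputs, a log2 fold change of −0.88 with an adjusted p of 0.348. Its FUSO inputs lay far apart. In all, 1 of the 50 listed pathway genes tested was called higher and 0 lower, against 0.667% and 0.135% of all tested genes.

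The genes whose pattern over the 4 inputs was most like that of AREG were chosen by the distance between values of log2(FPKM + 1), each centred on its gene's mean. YAP1, a transcription coactivator of the Hippo pathway, was nearest (distance 0.0798), at 9.06 and 11.0 FPKM in the Control inputs, against 14.9 and 14.2 FPKM in the FUSO inputs. TCTEX1D4 (0.103), SLC30A1 (0.106), HIVEP2 (0.11) and RCAN1 (0.113) followed. The likeness rests on 4 libraries that all 5 genes share with AREG. None of the 5 was called, with limma adjusted p of 0.123 to 0.224.

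m6A peaks were found on 6 of the 8 members. HBEGF, TGFA, EGFR, ERBB2 and ERBB3 had a peak in all 4 lists, AREG had peaks in 2 lists, and EREG and BTC had none in any list. Of tested genes within 2-fold of the level of HBEGF, TGFA, EGFR, ERBB2 or ERBB3, 71.0% to 75.7% had a peak in all 4 lists. Near the levels of AREG, EREG and BTC this share was 54.7% to 59.8%. The peaks of the members numbered 6 and 8 in the Control lists and 10 and 9 in the FUSO lists. The means were 7.0 ± 1.41 and 9.5 ± 0.707 (SD, n = 2), and a two-sided exact permutation test gave p = 0.333, the smallest that 2 against 2 lists allow. With only peaks at a p of at most 1e-05 the difference of 2.5 peaks became 0. Over all genes the lists averaged 17673.5 peaks in Control and 17702.0 in FUSO.

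Of the 10 union regions, 6 were in all 4 lists, against 51.5% of all regions, and 1 was in a single list, against 25.6%. No region was in both Control lists and neither FUSO list, a state that 2.64% of all regions had. In the reverse state, present in both FUSO lists and neither Control list, there was 1 region, against 2.38% of all regions.

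**Figure D2:**
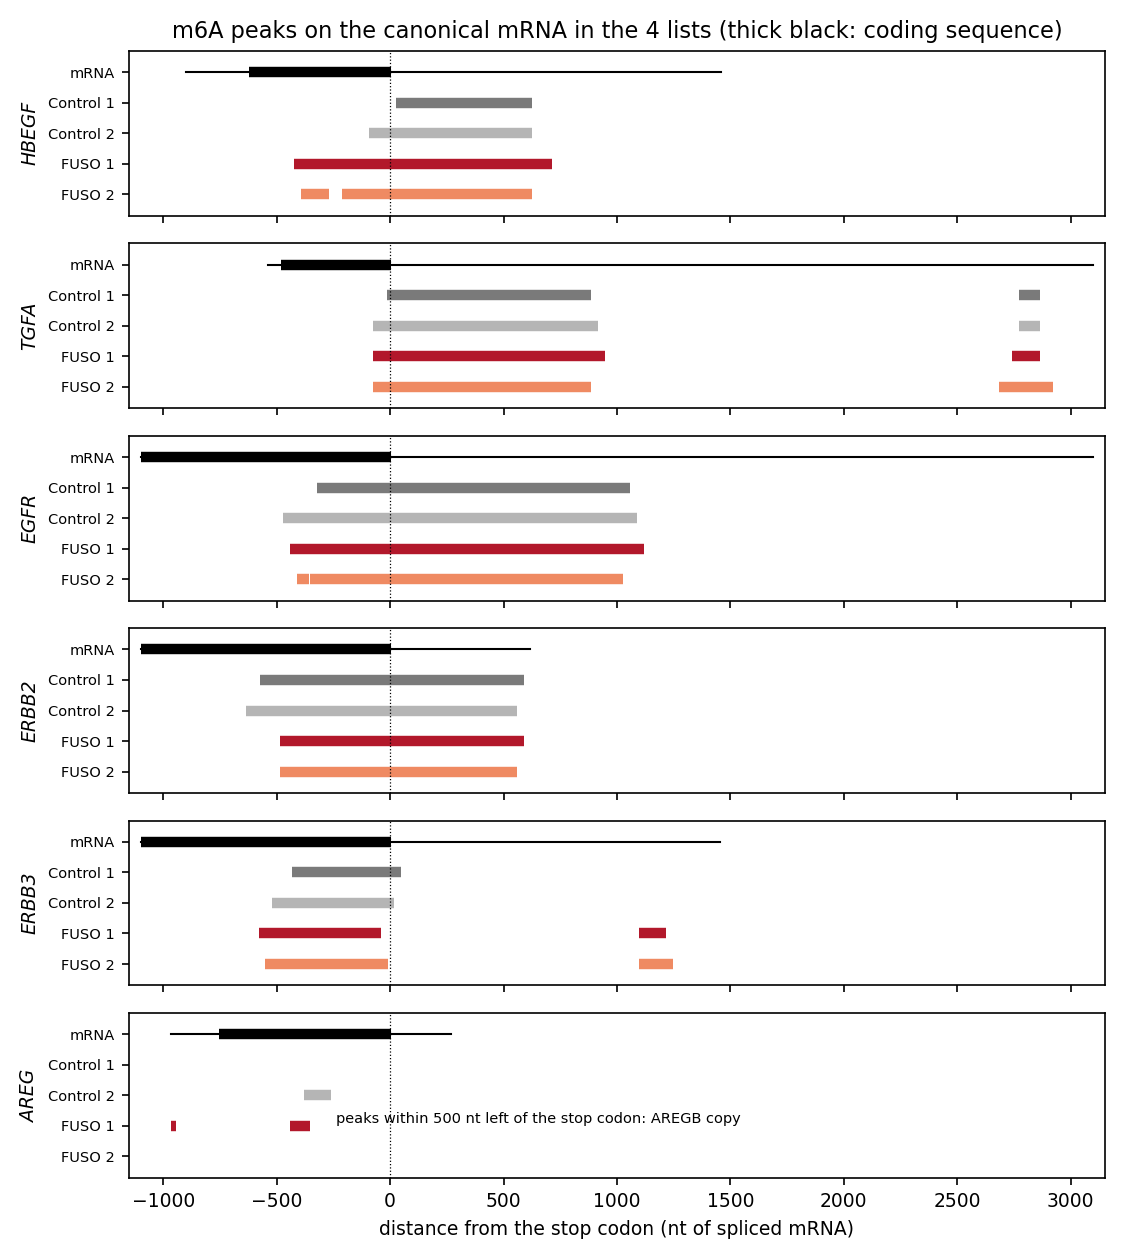
m6A peaks of 6 members on the spliced canonical mRNA, with the distance from the stop codon in nt on the horizontal axis (longer mRNAs cut at the panel's edges), the mRNA in black, 1 row per list, and the AREGB peaks drawn on the AREG panel. Peaks of HBEGF, TGFA, EGFR and ERBB2 run across or next to the stop codon in all 4 lists, and the separate ERBB3 peak from 1095 nt past it appears only in the FUSO lists.

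HBEGF carried 1 union region around its stop codon (chr5:139713174-139725513, minus strand, 5 exon blocks). Its deposited p-value was 2e-23 in Control 1, 3.2e-35 in Control 2, 2.5e-53 in FUSO 1 and 5e-52 in FUSO 2. The downstream edge was at position 623 in every list except FUSO 1, where it was at 712. The upstream edge was at position 26 in Control 1 and −93 in Control 2, against −422 in FUSO 1 and −213 in FUSO 2, which had a further 121 nt peak starting at position −392 (p-value 0.0013). Peaks thus reached farther into the coding sequence in both FUSO lists. Peaks covered 598 and 717 bases in Control and 1135 and 958 bases in FUSO. These did not overlap between groups, and the exact permutation p of 0.333 is the smallest possible. Covered bases were also apart for TGFA and ERBB3, with more in FUSO, and for ERBB2, with fewer, whereas those of EGFR overlapped. For ERBB3 this rested on its region found in both FUSO lists and neither Control list. The main ERBB3 region covered 480 and 539 bases in the Control lists and 539 bases in both FUSO lists. The share of all genes with covered bases apart between the groups was not computed. The mRNA of HBEGF was also higher in FUSO, and its part in the longer peaks was not tested. The region held 7 GGAC in 1135 bases, a number that 24.8% of regions within 2-fold of its length reached.

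TGFA had 2 regions, both in its 3′ untranslated region for most of their length. The main one (chr2:70677049-70680418, minus strand) began at position −74 in 3 lists and −14 in Control 1, and covered 899 to 1019 bases. Its p-value was 1.6e-59 in Control 1, 4e-71 in Control 2, 1.6e-74 in FUSO 1 and 4e-50 in FUSO 2, so that the FUSO lists held both its strongest and its weakest peak. A smaller region (chr2:70675071-70675311) lay at positions 2682 to 2922. It covered 91 bases in both Control lists, 121 in FUSO 1 and 241 in FUSO 2, with p-values of 0.00023, 5.6e-06, 0.00017 and 1e-14. Here FUSO 2 alone stood out, and FUSO 1 was close to Control 1. Peaks of both regions covered 1035.0 ± 63.6 bases in Control and 1170.0 ± 42.4 bases in FUSO (SD, n = 2, exact permutation p of 0.333).

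EGFR had its main region across the stop codon (chr7:55270745-55274424). It covered 1381 bases in Control 1, 1471 in Control 2, 1501 in FUSO 1 and 1381 in FUSO 2, with p-values of 7.9e-52, 4e-74, 1.3e-79 and 2.5e-56. The ranges of the groups overlapped in both measures. A second region (chr7:55269472-55270446) had a peak in Control 2 (p-value 2.4e-08), FUSO 1 (8.1e-05) and FUSO 2 (0.0026) and none in Control 1. It was strongest in a Control list. Only 113 of its 241 bases lay on the canonical transcript. These were in the coding sequence, directly upstream of the first region in the spliced mRNA.

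ERBB2 had the strongest peak of the family. Its region (chr17:37883228-37884885) centred near the stop codon, ran from position −635 to 590, and ranked in the top 5.37% to 8.06% of each list. The p-value was 1e-102 in Control 1, 1.3e-80 in Control 2, 1.3e-90 in FUSO 1 and 6.3e-81 in FUSO 2, with overlapping groups. The peak covered 1166 and 1196 bases in Control and 1076 and 1046 bases in FUSO, the reverse order of HBEGF, with an exact permutation p of 0.333. Of its bases, 107 to 137 lay in exons of MIEN1 on the other strand. MIEN1 had peaks of its own in every list, none of which shared a base with the ERBB2 peak.

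ERBB3 held the only region found in both FUSO lists and neither Control list (chr12:56496932-56497082). It lay in the 3′ untranslated region, at positions 1095 to 1245, with the GGAC window given above inside it. Of all regions within 2-fold of its length, 58.9% held a GGAC. The p-value was 0.0021 in FUSO 1 and 0.00013 in FUSO 2, which stood 93.2% and 74.6% of the way down those lists, and no such peak remained at a p of at most 1e-05. The mRNA of ERBB3 differed little between the groups (4.5 to 4.74 FPKM in all inputs). The main ERBB3 region (chr12:56495090-56495885), at the end of the coding sequence, was in every list. Its p-value was 1.2e-09 in Control 1, 9.5e-10 in Control 2, 1.6e-14 in FUSO 1 and 7.9e-12 in FUSO 2. It was smaller in both FUSO lists than in both Control lists, as for HBEGF. The share of all regions apart in this way was not computed, and IP depth was unknown. The main region ended at positions 48 and 18 in the Control lists and −42 and −12 in the FUSO lists. Its upstream edge was at −431 and −520 against −580 and −550. Both edges thus lay farther upstream in the FUSO lists, by steps close to the gap between lists of 1 group.

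**Figure D3:**
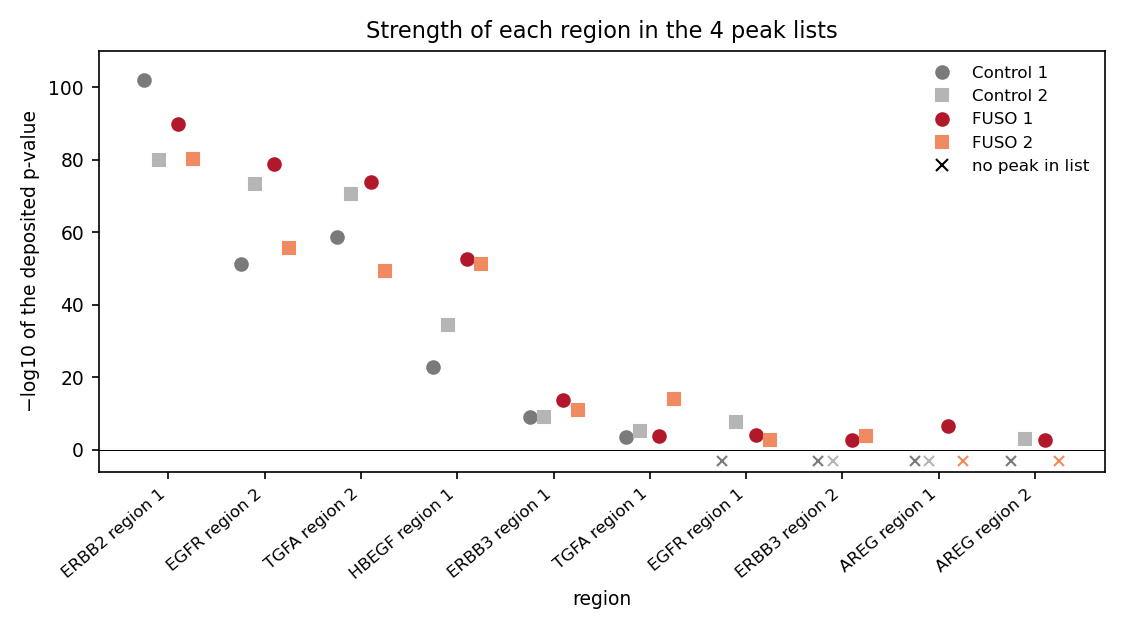
Strength of the 10 regions as −log10 of the deposited p-value (linear axis, strongest peak of the region in each list), with a cross where a list has no peak. The ERBB2, EGFR and TGFA main regions overlap between Control and FUSO, and the ERBB3 region 2 has crosses in both Control lists. HBEGF region 1 and ERBB3 region 1 are stronger in both FUSO lists than in both Control lists. The share of all regions apart in this way was not computed.

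AREG, the most abundant member, had few called peaks. A 60 nt peak at its 5′ end (chr4:75310815-75310874) was in FUSO 1 alone, with a p-value of 3.5e-07, and 22 of its bases lay on the canonical transcript. The other region named for AREG lay in the copy AREGB (chr4:75484528-75484706), in Control 2 (p-value 0.0014) and FUSO 1 (0.0022). All of its 179 bases also occur in AREG, at chr4:75314769-75314947 in the coding sequence, so the files do not tell which copy gave the signal. Neither region held a GGAC. The wider m6A motif DRACH (D is A, G or T, R is A or G, H is A, C or T) occurred 3 times in the AREGB region and 0 times in the other. Of the 245 tested genes within 2-fold of the level of AREG, 30.6% had no peak in any list and 55.1% had a peak in all 4. How fragments that fit both AREG and AREGB entered the peak calls was not stated in the sources used here. The low number of AREG peaks therefore cannot be read as little m6A.

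EREG had no peak at a mean of 183 FPKM, where 138 of 528 tested genes within 2-fold of its level (26.1%) had none either. The EREG mRNA held 8 GGAC, or 1.73 per kb, at the 10.2 percentile of tested genes (median 3.74 per kb). Its GC content of 36.1% was at the 3.12 percentile. The part of GGAC number or GC content in the missing peak was not tested. BTC, at 1.24 FPKM, had 2.26 GGAC per kb, and 21.5% of the genes near its level had no peak. The members with peaks in all 4 lists had 3.4 (TGFA), 3.74 (EGFR), 4.63 (ERBB3), 5.51 (HBEGF) and 6.58 (ERBB2) GGAC per kb. AREG had 4.05 GGAC per kb, with 1 of them within 500 nt of its stop codon, where the median over tested genes was 4. ERBB3, with a peak in all 4 lists, also had 1 there, EREG and BTC had 2 each, EGFR and ERBB2 5 each, TGFA 7 and HBEGF 8.

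**Figure D4:**
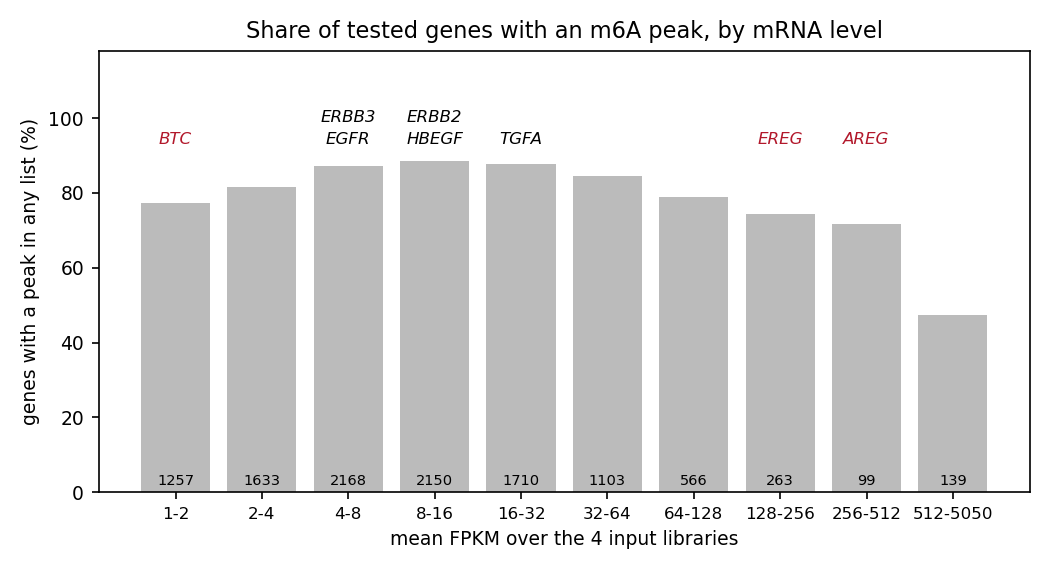
Percent of tested genes with an m6A peak in any list, by mean FPKM over the 4 inputs, with the number of genes in each bar and the members above the bar of their level (red: a peak in fewer than 4 lists). The share is 74.5% in the bar of EREG, which has no peak, and 88.5% in the bar of HBEGF and ERBB2, which have peaks in all lists.

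The members also differed in ATTTA, the core of AU-rich elements, which are known to shorten the life of mRNAs of growth factors and cytokines. The 3′ untranslated region of AREG held 4 ATTTA in 265 nt, a number that 1.73% of such regions within 2-fold of its length reached. EREG held 20 (5.89% had as many), BTC 12 (6.68%), TGFA 13 (18.5%) and HBEGF 5 (31.8%). Of the receptors, EGFR held 9 (57.7%), ERBB3 2 and ERBB2 0. The 3 ligands clustered on chromosome 4 had the lowest of these shares among the members. The comparison was matched for length and not for base composition, whose part was not tested. GC content over the whole mRNA was 45.3% in AREG, 36.1% in EREG and 38.7% in BTC. These were the 37.9, 3.12 and 11.1 percentiles of tested genes.

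Promoter sequences (windows around a transcription start, RefSeq, GRCh38.p14) were at hand for 7 members, ERBB3 excepted. They were searched on both strands for the cyclic AMP response element TGACGTCA (in 1.85% of 35116 promoters), the AP-1 motif TGANTCA (7.71%) and the TEAD motif GGAATG (14.0%). The windows of the 2 ligands with the smallest p are shown with the match in capitals.
AREG: ggccgggcctTGACGTCAtgggctgcgg
EREG: gacattttttCATTCCtcaaccacta
The AREG window was chr4:74445061-74445088 and the EREG window chr4:74364960-74364985, both on the plus strand. Counted from the start, the AREG match began at −65 and the EREG match, on the reverse strand, at −175. The ERBB2 window had 1 AP-1 match, and the downstream of 2 listed EGFR starts had 2 AP-1 matches and 1 TEAD match. The windows of HBEGF, TGFA and BTC held none of the 3 motifs.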

How the data were processed

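The 8 samples were 2 input and 2 IP libraries per group, grouped and numbered by their labels. Per the study's methods the authors removed adapters with cutadapt (the submitters' processing notes list Trim Galore 0.3.3), aligned reads to hg19 with HISAT2 2.1.0 and computed FPKM with StringTie from the inputs. These deposited FPKM adjust for length and total, not for GC recovery. The deposited peak lists, 1 per replicate, hold exon blocks, a gene name and a score of 0 to about 0.01, taken to be an uncorrected p-value of the authors, without fold enrichment, q-value or summit. The methods name MACS2, whereas the layout is that of exomePeak, and which was used was not settled. The methods' count test could not be used on FPKM.

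Members and lists were chosen with earlier results of these data known. Genes averaging 1 FPKM or more were fitted on log2(FPKM + 1) with limma 3.58.1 (eBayes with trend, R 4.3.3), adjusted by Benjamini-Hochberg over 11088 genes and called at 0.05, after tests on simulated data. Peaks, motifs and exact permutation tests used Python 3.11.15, NumPy 2.4.6 and SciPy 1.17.1, with GENCODE v44 mapped to GRCh37. Named were all members, the listed genes called, otherwise the 2 largest differences per list, and the 5 genes nearest to the member with the largest difference. ADAM17, NRG4, ERRFI1 and MIEN1 were added after their values were seen. Alternatives were no filter, another pseudocount, quantile normalization, median centring, a GC correction, no trend, the replicate block, a 2-fold rule, each library left out, peaks at a p of at most 1e-05, covered bases, matching by exon overlap and 50% reciprocal overlap.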

Additional observations from a re-analysis of the deposited data

How the results depend on the processing

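No member was called under any alternative that kept all 4 inputs. Leaving out 1 input at a time gave 0 to 3 members called higher, the highest without Control 2, and 13 to 185 genes higher and 3 to 99 lower over all genes, against 74 and 15. Without the filter these were 35 and 5, under the 2-fold rule 37 and 4, and 9 lower without the trend. The 1 listed pathway gene called higher became 0 without the filter, with median centring, without the trend, with the replicate block and under the 2-fold rule, and 0 to 4 when 1 input was left out, with 0 to 1 lower. Where 1 input was left out, the lone sample was assumed to vary like the other group. The replicate numbers did not pair the samples (correlation of deviations 0.0243 over 11088 genes). With the replicate block 75 genes were higher and 15 lower, and AREG had an adjusted p of 0.0551 and HBEGF of 0.0795 by limma. Over the alternatives that kept all inputs the adjusted p of AREG ranged from 0.0551 to 0.215. Signs turned for EGFR (−0.2437 to 0.2096 when 1 input was left out, the sign turning without Control 2) and for ERBB3 (−0.0291 with quantile normalization, −0.0118 with median centring, −0.0014 with the GC correction, −0.0181 to 0.0435 when 1 input was left out, the sign turning without Control 1). At a p of at most 1e-05 the difference in member peaks was 0 and the 1 region in both FUSO lists and neither Control list became 0. Leaving out 1 list gave a difference of 1.5 to 3.5 peaks and 1 to 2 such regions, and 0 regions in every Control list and no FUSO list throughout. Covered bases differed by 615.5 (4989.0 against 5604.5). Matching by exon overlap dropped both AREGB peaks. With 2 libraries per group and unknown IP depth, a missing peak means none detected at this depth. Whether the mark itself was absent cannot be told.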

Other observations

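EREG, AREG and BTC lie in 1 stretch of chromosome 4 with EPGN, next to the CXC chemokine genes. CXCL8, which attracts neutrophils, stood at 0.396 and 0.335 FPKM in the Control inputs, against 40.8 and 38.9 FPKM in the FUSO inputs, and CXCL1, CXCL2 and CXCL3 were likewise called higher by limma. Within 1 Mb of AREG, MTHFD2L, between the chemokine genes and EPGN, and PARM1, beyond BTC, were not called, with log2 fold changes of 0.11 and 0.14. The EGF ligands of the stretch had log2 fold changes of 0.58 (AREG), 0.38 (EREG) and 0.19 (BTC), and none was called.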
